A study of Homo sapiens with 8 samples.

Results

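The 50 genes described here make DNA in S phase or divide the cell in mitosis. They were taken by symbol from the count files of all 8 libraries, and all 50 matched an identifier among the 48162 in the files. Their roles put 23 with DNA replication and the G1/S switch and 27 with mitosis. The study compared HT-29, a human colorectal adenocarcinoma line, as wild type (WT, genotype HT-29 wild type) with the same line edited at MIEN1 with CRISPR/Cas9 (MIEN1_KO, genotype HT-29-pMIEN1-X), with 4 libraries in each group. MIEN1 is migration and invasion enhancer 1, a small membrane-associated protein. Both groups grew in 24-well dishes in DMEM with 10% FBS and penicillin/streptomycin, no drug was compared, and RNA of 4 dishes was pooled in equal amounts for each replicate. The edited cells had received plasmids for a pair of guides and Cas9, were selected with puromycin and were grown from single cells, while no cloning is described for WT. How many edited clones were used is not given in the sources used here, so the edit, the cloning and any batch cannot be told apart in any difference below.

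DNA replication is licensed in G1, when the origin recognition complex, CDC6 and CDT1 load the MCM helicase onto origins. Cyclin E and the E2F factors then start S phase, in which GINS activates the helicase, PCNA clamps the polymerases to DNA, and ribonucleotide reductase and thymidylate synthase supply nucleotides. Mitosis is driven by CDK1 with cyclins A and B and by the Polo and Aurora kinases, is held by the spindle checkpoint until chromosomes are attached, and ends when CDC20 directs the anaphase promoting complex to its targets. RNA of the first set is known to peak around S phase under E2F control, and that of the second in G2 and mitosis under FOXM1 and the DREAM and MYB-MuvB complexes, which bind CHR elements.

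Promoter windows from RefSeq (GRCh38.p14, 250 bases before each start to 50 after it, 300 in all) were found for 41 of the 50 genes, with 53 windows because some genes have several starts. The letters GCGGGAA, a core of E2F sites, were found on either strand in 10 of 26 replication windows and 3 of 27 mitotic windows, against 6.55% of all 35116 windows. TTTGAA, the commonest CHR element, was found in 16 of 27 mitotic windows and 1 of 26 replication windows, against 15.2% of all. TTCGAA, its variant, was found in 1 window of each set, against 1.45% of all. CCAAT, which NF-Y binds, was found in 20 of 26 and 23 of 27, against 34.6% of all. None of these letter strings contains another, and neighbouring matches were counted for each motif even where they shared letters. The stretches printed here belong to the genes of each set with the smallest p in the comparison whose window holds a motif, 5′ to 3′ on the gene's own strand, with the motifs in capitals. Those of CDCA7, HELLS and the upstream CDK1 start lie outside annotated exons, but all 250 bases of the HELLS stretch lie within the annotated span of HELLS. Those of MAD2L1 and the downstream CDK1 start are 30 bases around the last motif before the start. Of these bases 14 and 30 lie within the annotated span of the gene.
CDCA7, chr2:173354622-173354819, plus strand: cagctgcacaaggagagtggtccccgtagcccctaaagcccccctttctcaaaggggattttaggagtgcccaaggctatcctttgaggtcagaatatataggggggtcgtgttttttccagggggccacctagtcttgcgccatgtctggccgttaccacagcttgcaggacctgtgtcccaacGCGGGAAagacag
HELLS, chr10:94545538-94545787, plus strand: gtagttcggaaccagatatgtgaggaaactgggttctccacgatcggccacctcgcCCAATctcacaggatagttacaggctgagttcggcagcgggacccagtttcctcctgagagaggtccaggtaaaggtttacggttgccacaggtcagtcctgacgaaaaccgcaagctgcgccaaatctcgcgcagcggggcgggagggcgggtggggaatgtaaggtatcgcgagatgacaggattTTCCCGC
MAD2L1, chr4:120067061-120067090, minus strand: agtggctactgaaATTGGaatcgtcatctt
CDK1 upstream start, chr10:60778081-60778330, plus strand: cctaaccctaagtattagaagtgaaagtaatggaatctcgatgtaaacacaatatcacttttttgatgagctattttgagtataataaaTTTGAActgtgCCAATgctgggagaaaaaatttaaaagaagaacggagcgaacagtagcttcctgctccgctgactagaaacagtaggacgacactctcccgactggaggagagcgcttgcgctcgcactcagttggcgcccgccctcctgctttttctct
CDK1 downstream start, chr10:60778448-60778477, plus strand: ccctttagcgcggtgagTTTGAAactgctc
CDCA7 holds GCGGGAA from 65 bases before its start, and HELLS holds it on the other strand from 7 bases before its start with a CCAAT box at 194. The MAD2L1 stretch holds CCAAT on the other strand 229 bases before the start, and the CDK1 downstream start has TTTGAA 13 bases before it. Nearer matches lie past the start and are not printed: TTTGAA at 24 in the MAD2L1 window and at 9 in the CDK1 downstream window. Among the 20 replication genes with a window, 9 held GCGGGAA, of which 1 was higher in MIEN1_KO, 3 were lower and 5 did not pass the test described below. Of the 21 mitotic genes with a window, 14 held TTTGAA, of which 2 were higher, 8 lower and 4 not called. Over all genes tested 21.0% were higher and 20.7% lower. Of all mitotic members 11.1% were higher and 37.0% lower, and of all replication members 17.4% and 21.7%. A link between motif and call was not tested. BIRC5, MCM5, MCM4, CCNE2, TPX2, FOXM1, AURKA, TTK and UBE2C had no window in the table. A match of letters is a description and shows no binding.

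Levels are given as CPM, which puts the counts of all libraries on a common size by TMM scaling, and 4 values in a row are always replicates 1 to 4. MIEN1 itself fell from 21.6 ± 1.36 CPM (SD, n = 4) over the WT libraries to 0.805 ± 0.186 CPM over the edited ones, with 522, 594, 471 and 493 counts in the WT libraries and 15, 19, 23 and 16 in the edited ones (log2 fold change -4.75, edgeR adjusted p = 1.0e-11). Library totals ran between 21940903 and 25148790 counts, which left 14228 genes for testing. Of these, 41.7% passed an adjusted p of 0.05, 21.0% higher and 20.7% lower in MIEN1_KO, so a call is common in this comparison. Of the calls 50.2% were higher with TMM scaling, 39.7% with upper-quartile factors and 42.1% with the trend on GC content removed (described below). MIEN1_KO replicate 4 stood apart: chi-square over degrees of freedom, a measure of scatter between a pair of libraries, was 28.8 to 32.7 for pairs with it, 3.38 to 13.0 for the other MIEN1_KO pairs and 2.46 to 7.32 for WT pairs. All 10 colon epithelial markers were tested, summing to 11121 to 11653 CPM in WT and 13970 to 17659 CPM in MIEN1_KO. They did not move together: the keratins KRT8, KRT18, KRT19 and KRT20 rose, LGALS4 fell from a mean of 803 to 377 CPM, CDX2 from 6.19 to 0.273 and CDX1 from 0.823 to 0.012, and 3 were not called. All 3 endothelial markers found were under 1 CPM in every library with KDR at 0, COL1A1 was the single fibroblast marker of 6 above 1 CPM with COL3A1 at 0, and of 6 leukocyte markers CD14 and LYZ were above 1 CPM with CD68 at 0 (list sums 893 to 933 CPM in WT and 722 to 782 in MIEN1_KO). The part of these markers in the results below was not tested.

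All 50 genes passed the filter on low counts, with 101 to 18863 counts per library. At an adjusted p of 0.05 over all 14228 genes, 22 of the 50 (44%) were called, 7 higher and 15 lower in MIEN1_KO, beside 41.7% called over all genes. No member was called at 2-fold or more, as 5.58% of all genes were. The CPM of 10 members was higher in every edited library than in any WT library and that of 16 was lower, beside 20.1% and 21.0% of all genes. Among the 23 replication genes 4 rose (MCM2, MCM5, CDT1 and E2F1), 5 fell (CDCA7, HELLS, CCNE1, CHEK1 and RRM1) and 14 were not called. Among the 27 mitotic genes 3 rose (FOXM1, PLK1 and CDC20), 10 fell (TTK, MAD2L1, CDK1, NUSAP1, KIF23, TOP2A, BUB1B, CDC25C, BUB1 and KIF11) and 14 were not called. The share that rose was thus 17.4% of replication and 11.1% of mitotic genes beside 21.0% of all genes, and the share that fell was 21.7% and 37.0% beside 20.7%. The median log2 fold change was -0.08 for the replication genes and -0.13 for the mitotic genes, beside -0.02 over all genes, and the difference between the sets was not tested. Fewer dividing cells and less of these RNAs per cell cannot be told apart in bulk RNA. Among the called genes FOXM1 shares 781 exonic bases with ITFG2 on the opposite strand, and PLK1 553 with AC008870.3. CDC25C shares 293 with FAM53C there, and KIF23 231 with AC027237.3. On the same strand BUB1B shares 457 with BUB1B-PAK6, HELLS 438 with AL138759.1 and CHEK1 80 with STT3A. Reads from those bases cannot be told apart where the counting did not use strand, or at all for same-strand genes. BUB1B-PAK6 and AL138759.1 held 1 and 4 counts over all libraries, and STT3A 65996. On the opposite strand FAM53C held 8606 counts against 3034 for CDC25C, whose value is uncertain if counting did not use strand. ITFG2 held 4602 against 21110 for FOXM1, AC027237.3 held 204 and AC008870.3 held 36.

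These calls carry a limit that touches every group below. Genes with a GC-rich transcript were higher in MIEN1_KO across all genes, and when that trend was removed none of the 7 higher calls passed the test, while 10 of the 15 lower calls did. That balance rests on how the GC curve was centred, a choice made after values were seen. With a curve that was not centred, which shifted the median of all genes upward, 5 of the 7 higher calls (CDC20, FOXM1, PLK1, MCM2 and MCM5) and 3 of the 15 lower calls (TTK, CCNE1 and CDCA7) passed, beside 42.9% of all genes. With the centred curve and without MIEN1_KO replicate 4, 1 of the 7 (FOXM1) and 9 of the 15 passed, beside 41.9% of all genes. Values beside the groups below are those with the centred curve.

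**Figure D1:**
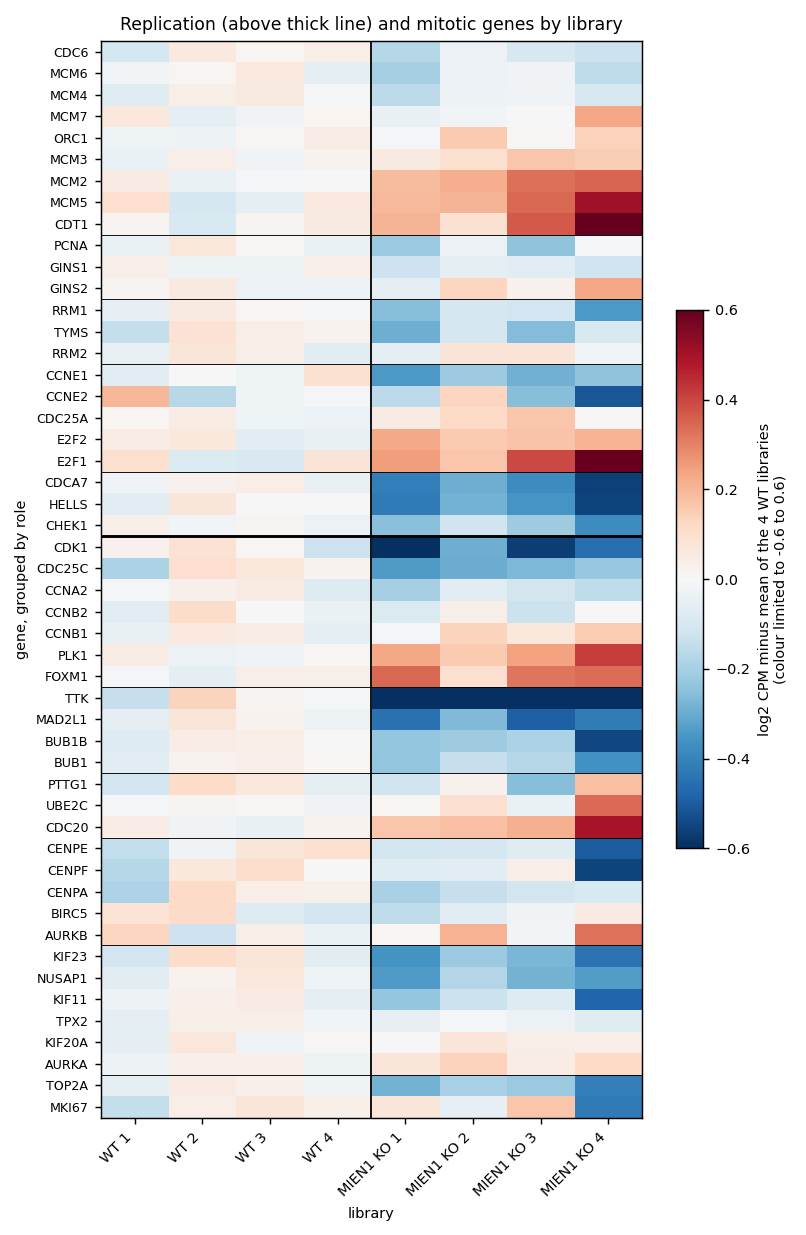
Colour shows log2 CPM of each gene in each library minus the mean of the 4 WT libraries (blue lower, red higher, limited to 0.6 either way), with genes grouped by role and replication genes above the thick line. TTK is deep blue in all 4 MIEN1_KO libraries, while CDC20, CDT1 and E2F1 are reddest in replicate 4.

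Of the 9 licensing genes 3 rose and none fell. MCM2, a subunit of the replicative helicase, read 315, 295, 301 and 305 CPM in the WT libraries and 347, 354, 383 and 387 CPM in the edited ones. Its groups did not overlap (log2 fold change 0.27, SE 0.06, edgeR adjusted p = 0.0032). MCM5, another subunit, read 154, 133, 138 and 149 CPM in the WT libraries and 164, 165, 182 and 203 CPM in the edited ones. The edited libraries were all above the WT ones, with replicate 4 highest (log2 fold change 0.31, SE 0.08, edgeR adjusted p = 0.0066). CDT1, which loads the helicase onto origins, read 87.6, 81.3, 87.6 and 90.0 CPM in the WT libraries and 99.7, 92.3, 112 and 134 CPM in the edited ones. Here too the groups did not overlap, and replicates 3 and 4 were well above replicates 1 and 2 (log2 fold change 0.34, SE 0.10, edgeR adjusted p = 0.015). MCM3 was higher in every edited library than in any WT library but was not called (log2 fold change 0.12, SE 0.06, edgeR adjusted p = 0.12). The other MCM subunits did not pass the test: MCM4 at a log2 fold change of -0.08, MCM6 at -0.10 and MCM7 at 0.05, and neither did the loading factor CDC6 at -0.11 or the origin recognition subunit ORC1 at 0.08. The 6 MCM subunits, which form a hexamer with 1 copy of each, summed to 1813 ± 18.4 CPM over WT and 1922 ± 103 CPM over MIEN1_KO. Only replicates 2 to 4 of the edited libraries were above the WT range. That sum was 6.02% higher in MIEN1_KO, beside 4.79% for the sum over all genes tested. The GC content of the MCM transcripts ran from 43.1% in MCM6 to 58.1% in MCM2. After removal of the GC trend the log2 fold changes of MCM2, MCM5 and CDT1 became 0.03, 0.10 and -0.11, none called, and MCM7 became lower at -0.19 (edgeR adjusted p = 0.0052).

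None of the 3 fork genes was called. PCNA, the sliding clamp, read 247, 267, 256 and 248 CPM in the WT libraries and 218, 249, 215 and 252 CPM in the edited ones, and replicates 1 and 3 of the edited group lay below all WT libraries while 2 and 4 lay within them (log2 fold change -0.12, SE 0.07, edgeR adjusted p = 0.17). The GINS subunits, which activate the helicase, had log2 fold changes of -0.09 for GINS1 and 0.09 for GINS2. GINS1 was lower in every edited library than in any WT library, without passing the test. Removing the GC trend gave -0.03 for PCNA, 0.06 for GINS1, which turned, and 0.08 for GINS2, none called. Of the 3 nucleotide supply genes, RRM1, the large subunit of ribonucleotide reductase, fell. It read 195, 209.8, 204 and 200.4 CPM in the WT libraries and 169, 188, 187 and 159 CPM in the edited ones, and the groups did not overlap (log2 fold change -0.20, SE 0.07, edgeR adjusted p = 0.030). Its partner RRM2, the small subunit whose level follows the cell cycle, read 212, 230.0, 224 and 209 CPM in the WT libraries and 209.9, 231, 231 and 216 CPM in the edited ones. The groups overlapped, with edited replicates 2 and 3 just above the highest WT library (log2 fold change 0.02, SE 0.06, edgeR adjusted p = 0.84). TYMS, thymidylate synthase, was at a log2 fold change of -0.19 (edgeR adjusted p = 0.059), and -0.21 with the GC trend removed (adjusted p = 0.018). RRM1 was at -0.08 and no longer called with the trend removed, and it also lost its call without any of the 4 WT libraries or without MIEN1_KO replicate 1 (edgeR adjusted p 0.055 to 0.11). TYMS was called when WT replicate 1 or MIEN1_KO replicate 2 or 4 was left out (adjusted p 0.015 to 0.047). TYMS shares 967 exonic bases with ENOSF1 on the other strand, and since it is not given whether counting used strand, reads from the shared bases cannot be assigned.

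Among the 5 G1/S regulators the activator E2F1 and cyclin E1 moved in opposite directions. E2F1, the transcription factor that opens S phase, read 101, 89.5, 88.9 and 99.8 CPM in the WT libraries and 113, 106, 125 and 149 CPM in the edited ones. The edited libraries lay above the WT ones, replicate 2 by the least and replicate 4 by the most (log2 fold change 0.38, SE 0.10, edgeR adjusted p = 0.0070). CCNE1, the cyclin that partners CDK2 at S phase entry, read 20.4, 21.3, 20.9 and 22.7 CPM in the WT libraries and 16.8, 18.3, 17.4 and 18.0 CPM in the edited ones. All edited libraries were below all WT libraries (log2 fold change -0.27, SE 0.07, edgeR adjusted p = 0.0076). E2F2, another activator E2F, was higher in every edited library at 9.77 ± 0.434 CPM over WT and 11.1 ± 0.250 CPM in MIEN1_KO, and missed the threshold (log2 fold change 0.19, SE 0.08, edgeR adjusted p = 0.068). CCNE2 read 4.68 to 7.66 CPM over all 8 libraries, and CDC25A, the phosphatase that activates CDK2, had a log2 fold change of 0.09, both not called. CCNE2 lies against INTS8, with 1629 shared exonic bases on opposite strands and far more counts in INTS8, so its value is uncertain. On the scale with the GC trend removed, E2F1 was at 0.0043 and not called, and CCNE1 at -0.38 (edgeR adjusted p = 3.5e-04).

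All 3 genes of the checkpoint and chromatin group fell. CDCA7, an E2F and MYC target, read 147, 152, 153 and 145 CPM in the WT libraries and 112, 122, 115 and 101 CPM in the edited ones. Each edited library was below each WT library (log2 fold change -0.41, SE 0.07, edgeR adjusted p = 3.5e-04). HELLS, the chromatin remodeller that CDCA7 activates, read 62.9, 69.2, 66.0 and 65.7 CPM in the WT libraries and 49.1, 54.2, 51.5 and 44.8 CPM in the edited ones. It was ordered over the edited libraries like CDCA7, with replicate 4 lowest and replicate 2 highest (log2 fold change -0.40, SE 0.07, edgeR adjusted p = 6.0e-04). CHEK1, the kinase of the replication checkpoint, read 75.6, 73.1, 74.7 and 72.0 CPM in the WT libraries and 62.1, 68.0, 63.7 and 56.9 CPM in the edited ones, again with no overlap (log2 fold change -0.24, SE 0.07, edgeR adjusted p = 0.013). Removing the GC trend left CDCA7 lower at -0.25 and HELLS at -0.21 (edgeR adjusted p = 3.4e-04 and 0.0026), and CHEK1 was at -0.09 and not called, nor was it called without WT replicate 3 (adjusted p = 0.055). Their transcripts were GC-poor, at 40.6%, 37.6% and 41.5%.

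**Figure D2:**
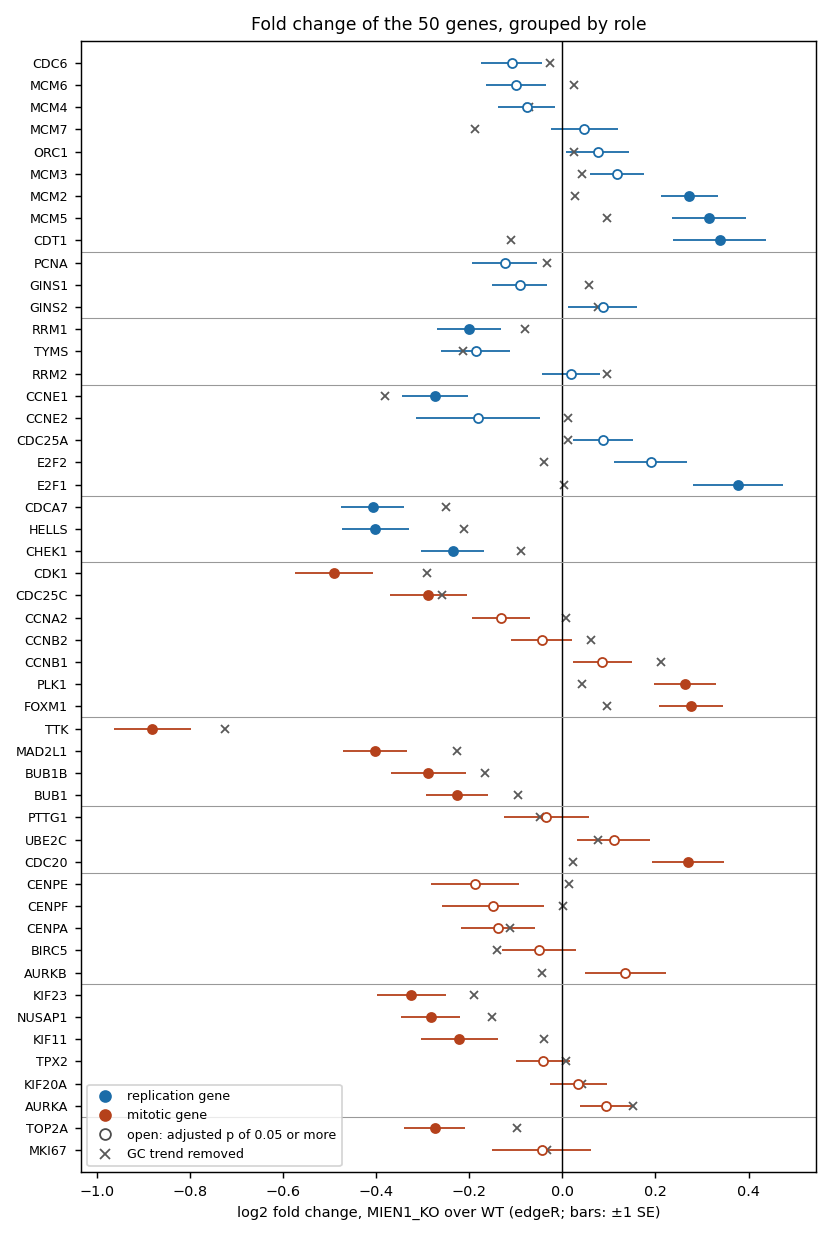
Points give the edgeR log2 fold change of each gene (MIEN1_KO over WT) with bars of 1 SE, filled where called and open where not, and crosses give the value with the GC trend removed. All 7 filled points right of 0 have crosses between -0.11 and 0.10, while TTK stays farthest left on both scales.

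The 7 mitotic entry genes split, with 2 higher, 2 lower and 3 not called. CDK1, the kinase that drives entry into mitosis, read 89.2, 92.8, 88.1 and 80.4 CPM in the WT libraries and 54.8, 71.5, 59.2 and 64.0 CPM in the edited ones. The edited libraries were all below the WT ones and spread more widely (log2 fold change -0.49, SE 0.08, edgeR adjusted p = 4.5e-04). CDC25C, the phosphatase that activates CDK1, read 15.5, 19.0, 18.6 and 18.0 CPM in the WT libraries and 14.0, 14.4, 14.7 and 15.1 CPM in the edited ones. The lowest WT library, replicate 1, was close to the edited ones but above them (log2 fold change -0.29, SE 0.08, edgeR adjusted p = 0.013). PLK1, the Polo kinase of mitotic entry, read 152, 144, 146 and 149 CPM in the WT libraries and 173, 164, 174 and 197 CPM in the edited ones. Its groups did not overlap (log2 fold change 0.26, SE 0.07, edgeR adjusted p = 0.0065). FOXM1, the transcription factor of G2/M genes, read 101, 98.4, 105 and 105 CPM in the WT libraries and 129.9, 109, 128 and 129 CPM in the edited ones. Replicate 2 was the lowest of the edited libraries and still above all WT ones (log2 fold change 0.28, SE 0.07, edgeR adjusted p = 0.0061). The cyclins that bind CDK1 were not called, with log2 fold changes of -0.13 for CCNA2, 0.09 for CCNB1 and -0.04 for CCNB2. Removal of the GC trend put CDK1 at -0.29 (edgeR adjusted p = 0.0082) and CDC25C at -0.26 (adjusted p = 0.014), both lower, while PLK1 at 0.04 and FOXM1 at 0.10 were not called (FOXM1 was when replicate 4 was also left out, at 0.14, adjusted p = 0.016) and CCNB1 was called higher at 0.21 (adjusted p = 0.0062). CDC25C also lost its call when WT replicate 2 or 3 was left out (edgeR adjusted p = 0.058 and 0.055).

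The spindle checkpoint, which delays anaphase until every chromosome is attached, had 4 genes among the 50, and all 4 fell. Their transcripts were GC-poor, at 40.8% for TTK, 39.4% for MAD2L1, 43.2% for BUB1B and 42.5% for BUB1. Of all tested genes below 45% GC, 36.6% were called lower and 3.42% higher. TTK, the MPS1 kinase that starts checkpoint signalling, read 32.8, 39.6, 36.6 and 35.8 CPM in the WT libraries and 18.7, 20.3, 21.6 and 18.1 CPM in the edited ones. The edited libraries held 54.3% of the WT mean, the largest fold change among the 50 genes (log2 fold change -0.88, SE 0.08, edgeR adjusted p = 2.2e-06). MAD2L1, the MAD2 protein that inhibits CDC20, read 84.8, 92.9, 89.7 and 86.6 CPM in the WT libraries and 64.9, 73.7, 63.0 and 66.2 CPM in the edited ones. The groups were far apart relative to their spread (log2 fold change -0.40, SE 0.07, edgeR adjusted p = 4.2e-04). BUB1B, the BUBR1 protein of the same inhibitory complex, read 85.2, 92.7, 91.8 and 89.5 CPM in the WT libraries and 76.4, 77.5, 78.8 and 61.4 CPM in the edited ones. Edited replicates 1 to 3 lay close together and replicate 4 far below them (log2 fold change -0.29, SE 0.08, edgeR adjusted p = 0.012). BUB1, the kinase that recruits the complex to kinetochores, read 85.5, 90.8, 91.2 and 90.3 CPM in the WT libraries and 75.8, 81.2, 79.3 and 69.4 CPM in the edited ones, without overlap (log2 fold change -0.23, SE 0.07, edgeR adjusted p = 0.015). With the GC trend removed TTK at -0.72, MAD2L1 at -0.23 and BUB1B at -0.17 were still called (edgeR adjusted p = 8.0e-07, 0.0059 and 0.039), and BUB1 at -0.09 was not. When MIEN1_KO replicate 4 was also left out, BUB1B was at -0.08 and not called (edgeR adjusted p = 0.12). MAD1L1, a checkpoint gene outside the 50, rose and is described with the other mitotic genes. BUB1 also lost its call when any of WT replicates 2 to 4 or MIEN1_KO replicate 1 was left out (edgeR adjusted p 0.053 to 0.066).

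CDC20, the activator of the anaphase promoting complex that MAD2L1 and BUB1B hold in check, rose. It read 176, 169, 166 and 173 CPM in the WT libraries and 192, 193, 198 and 241 CPM in the edited ones. Replicate 4 was far above the other edited libraries, which themselves were above all WT libraries (log2 fold change 0.27, SE 0.08, edgeR adjusted p = 0.013, and 0.21 without replicate 4). UBE2C, the ubiquitin-conjugating enzyme of the complex, and PTTG1, the securin it destroys, were not called at 0.11 and -0.03. CDC20 was at 0.02 with the GC trend removed. None of the 5 centromere and chromosomal passenger genes was called. The log2 fold changes were -0.14 for CENPA, the centromeric histone, -0.19 for the kinetochore motor CENPE, -0.15 for the kinetochore protein CENPF, -0.05 for BIRC5, the passenger protein survivin, and 0.14 for its kinase AURKB. CENPE and CENPF were lowest in edited replicate 4: CENPF read 267, 313, 322 and 300.2 CPM in the WT libraries and 285, 287, 308 and 204 CPM in the edited ones, and without replicate 4 the log2 fold changes were -0.01 for CENPF and -0.08 for CENPE. With the GC trend removed the 5 values were -0.11 for CENPA, 0.01 for CENPE, 0.0022 for CENPF, -0.14 for BIRC5 and -0.04 for AURKB. None was called, and CENPE, CENPF and AURKB had turned.

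Of the 6 spindle and cytokinesis genes 3 fell and none rose. KIF23, a motor of the central spindle that cytokinesis needs, read 88.9, 104, 101 and 91.9 CPM in the WT libraries and 75.1, 82.4, 79.7 and 70.8 CPM in the edited ones. NUSAP1, which binds and bundles spindle microtubules, read 139, 147, 152 and 143 CPM in the WT libraries and 115, 128, 119 and 115 CPM in the edited ones. Both were lower in every edited library (log2 fold change -0.33, SE 0.07, edgeR adjusted p = 0.0033 for KIF23, and -0.28, SE 0.06, adjusted p = 0.0031 for NUSAP1). KIF11, the motor that separates the spindle poles, read 91.3, 95.3, 96.6 and 89.7 CPM in the WT libraries and 79.4, 85.1, 88.5 and 66.9 CPM in the edited ones. Edited replicate 3 nearly reached the lowest WT library (log2 fold change -0.22, SE 0.08, edgeR adjusted p = 0.045), and the call was lost without any of the 4 WT libraries, without MIEN1_KO replicate 1 (adjusted p 0.082 to 0.15 over these) and without MIEN1_KO replicate 4 (log2 fold change -0.13, adjusted p = 0.060). AURKA, the Aurora kinase of spindle poles, its activator TPX2 and the cytokinesis motor KIF20A were at 0.09, -0.04 and 0.03, not called. AURKA was higher in every edited library than in any WT library. TOP2A, the topoisomerase that untangles chromosomes, read 537, 576, 569.7 and 548 CPM in the WT libraries and 459, 487, 478 and 420.1 CPM in the edited ones. It fell in all edited libraries (log2 fold change -0.27, SE 0.07, edgeR adjusted p = 0.0045), and lies 657.7 kb from MIEN1 on chromosome 17. MKI67, the proliferation antigen Ki-67 that coats mitotic chromosomes, read 648, 735, 753 and 729 CPM in the WT libraries and 751, 690.4, 802 and 533 CPM in the edited ones. The groups overlapped, with edited replicates 1 and 3 near or above the highest WT library and replicate 4 below the lowest (log2 fold change -0.04, SE 0.11, edgeR adjusted p = 0.76). Once the GC trend was removed, KIF23 at -0.19 and NUSAP1 at -0.15 were still called (edgeR adjusted p = 0.011 and 0.016), KIF11 at -0.04 and TOP2A at -0.10 were not, and AURKA was called higher at 0.15 (adjusted p = 0.013).

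Per kilobase of exon, the order of levels in WT began with PCNA at 173 ± 6.24 CPM per kb, MCM7 at 139 ± 4.84, TPX2 at 100.3 ± 3.14 and UBE2C at 96.0 ± 1.22. PCNA and MCM7 were apart by more than their spread, as were MCM7 and TPX2, whereas TPX2 and UBE2C differed by no more than the sum of their SDs. At the other end were CCNE2 at 1.53 ± 0.160 and E2F2 at 1.79 ± 0.0795 CPM per kb. In MIEN1_KO PCNA and MCM7 were again the highest, at 159 ± 13.2 and 144 ± 13.3, no longer apart by more than their spread. TTK went from rank 44 of 50 to rank 48, at 7.91 ± 0.613 and 4.29 ± 0.347 CPM per kb. These levels use all annotated exons, so a gene with long rarely used exons reads low.

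Summed over the 23 replication genes, the level was 3320 ± 8.36 CPM for WT and 3357 ± 143 CPM for MIEN1_KO, and over the 27 mitotic genes 4079 ± 144 and 3868 ± 154 CPM. In the first set the summed level thus moved by less than the SD of the edited libraries, though by more than the SD of the WT libraries. In the second set it moved by -5.18% of the WT mean, and the groups overlapped. The sum over all genes tested was 4.79% higher in MIEN1_KO. In each library the median deviation from the WT mean can be set beside that over all genes. The replication genes were at a median log2 difference of -0.13, -0.02, -0.02 and -0.02 in the 4 edited libraries and the mitotic genes at -0.12, -0.07, -0.08 and -0.15, while all genes were at -0.02, -0.0086, -0.02 and -0.01. The mitotic set was below 0 in all 4 edited libraries, but WT replicates 1 and 4 were also below 0, at -0.06 and -0.02. The libraries did not take the extremes evenly: of the 50 genes, edited replicate 2 held the highest edited value for 20 and replicate 4 for 17, while replicate 1 held the lowest for 22 and replicate 4 for 16.

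Without MIEN1_KO replicate 4, 21 of the 22 called genes were called in the same direction, and KIF11 was not. PCNA and TYMS were then called lower and MCM3 higher, which made 5 higher and 7 lower of 23 replication genes and 3 higher and 9 lower of 27 mitotic genes, beside 45.9% called over all genes in that fit, 24.4% higher and 21.5% lower. Among the genes that rose, the log2 fold change of E2F1 went from 0.38 to 0.29 and CDT1 from 0.34 to 0.24. TTK went from -0.88 to -0.82 and CDK1 from -0.49 to -0.48.

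Within the 50 genes the fold change followed the GC content of the transcript. Of the 15 genes above 50% GC, 7 were called higher and 1 lower, of the 14 genes between 45% and 50% none was higher and 1 lower, and of the 21 genes below 45% none was higher and 13 were lower. Over all genes tested, 39.4% of those above 50% GC were higher and 8.86% lower. Between 45% and 50% these shares were 9.87% and 20.8%, and below 45% they were 3.42% and 36.6%. Across the 50 genes the correlation of log2 fold change with GC was r = 0.79 (Spearman's rho = 0.81), beside r = 0.28 (rho = 0.52) across 13826 genes, as a description of genes that share 8 libraries. Taken library by library over the 50 genes, r was 0.86 in MIEN1_KO replicate 4 and 0.59 to 0.73 in replicates 1 to 3. Among WT libraries, each against the mean of the other WT libraries, r ran from -0.51 to 0.38. The slope was 0.27 on the log2 scale per 10 percentage points of GC for the members and 0.24 for all genes. CCNE1 was the 1 gene above 50% that fell, at 52.9% GC, and CDC25C the 1 gene that fell between 45% and 50%, at 47.6%.

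With the GC trend removed in the edgeR fit, 14 of the 50 genes were called, 2 higher and 12 lower, beside 35.8% called over all genes, 15.1% higher and 20.7% lower. Replication genes counted none higher and 5 lower (CCNE1, CDCA7, HELLS, MCM7 and TYMS), and mitotic genes 2 higher (CCNB1 and AURKA) and 7 lower (TTK, CDK1, CDC25C, MAD2L1, KIF23, BUB1B and NUSAP1). The median log2 fold changes were then -0.03 and -0.04, beside -0.03 over all genes. The correlation with GC across the 50 genes was r = 0.21 after removal. Where the GC curve was not centred, which shifted the median of all genes by 0.10, 68.0% of calls were higher and RRM1, CHEK1, BUB1, KIF11 and TOP2A turned from lower to values of 0.01 to 0.07, none of them called. On that scale 7 replication genes were higher and 2 lower, and 9 mitotic genes higher and 1 lower, beside 29.1% higher and 13.7% lower of all genes. TTK, CCNE1 and CDCA7 were the 3 of the 22 called genes that passed the test in the same direction in all 18 other settings tried.

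TTK and CCNE1 lie among genes that were also lower. TTK is at chr6:80003887-80042527 (GRCh38), and of the 25 other tested genes within 5 Mb of it 23 were called lower and none higher, with a median log2 fold change of -0.74 beside -0.88 for TTK. With the GC trend removed that median was -0.58, beside -0.72. CCNE1 is at chr19:29811898-29824308, and of its 36 neighbours 21 were lower and 2 higher, with a median of -0.46 beside -0.27 for CCNE1, and -0.34 beside -0.38 with the trend removed. These were the lowest neighbour medians of the 50 genes. CDCA7, at chr2:173354820-173368997, had 52 neighbours, of which 15 were lower and 7 higher, with a median of -0.14 beside its -0.41. With the trend removed that median was -0.0091, beside -0.25. RRM1 went against its surroundings, falling at -0.20 where 67 of 121 neighbours were higher and the median was 0.49. TOP2A fell among 146 neighbours with 41 higher and 12 lower. With the trend removed neither RRM1 at -0.08 nor TOP2A at -0.10 was called. The neighbours of RRM1 then counted 46 higher and 13 lower with a median of 0.17. Those of TOP2A counted 22 higher and 29 lower with a median of -0.02, so that contrast was gone. The window was chosen after values were seen, and the part of position in these results was not tested.

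Other genes of these pathways, from longer lists, were counted in the same way, and the lists were not tested against the members. Of 51 other replication genes (origin recognition, polymerases, clamp loader, chromatin assembly) 5 rose and 17 fell, with a median log2 fold change of -0.10, beside 21.0% higher and 20.7% lower of all genes. POLD2, a subunit of polymerase delta, RFC2, of the clamp loader, and CHAF1A, of chromatin assembly factor 1, rose with the smallest p. ORC3, an origin recognition subunit, and DUT, which removes dUTP, were among those that fell with the smallest p. Of 78 other mitotic genes 5 rose and 38 fell, with a median of -0.21. The spindle checkpoint protein MAD1L1, the spindle protein TACC3 and separase, ESPL1, rose, and FBXO5, an inhibitor of the anaphase promoting complex, the mitotic kinase PBK and CDCA2 fell. FBXO5 read 32.1, 31.8, 34.2 and 32.6 CPM in the WT libraries and 18.1, 23.4, 20.7 and 20.2 CPM in the edited ones, lower in every edited library. MAD1L1, the partner of MAD2L1 at kinetochores, read 40.5, 39.8, 39.2 and 39.8 CPM in the WT libraries and 48.2, 46.7, 49.1 and 57.1 CPM in the edited ones, higher in every edited library, against the direction of the 4 checkpoint members. With the GC trend removed 3 rose and 13 fell of the other replication genes and 2 rose and 19 fell of the other mitotic genes. Of all genes 15.1% were then higher and 20.7% lower. None of the 6 genes named here as higher kept its call: POLD2 was at 0.07, RFC2 at 0.16, CHAF1A at -0.03, MAD1L1 at -0.04, TACC3 at 0.07 and ESPL1 at 0.0093. The named genes that fell kept theirs. ORC3 and FBXO5, like TTK on chromosome 6, had neighbour medians of -0.67 and -0.45. PBK and CDCA2, on chromosome 8, had -0.32 and -0.30.

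Among 23 tested G1 cyclins, kinases and inhibitors 7 rose (30.4%) and 5 fell (21.7%), beside 21.0% higher and 20.7% lower of all genes. CCND3, a D-type cyclin, read 83.9, 79.3, 84.2 and 92.5 CPM in the WT libraries and 125, 121, 132 and 159.9 CPM in the edited ones, above WT in all edited libraries. CDK4, its kinase, and CDKN2A, which encodes the CDK4 inhibitor p16 and ARF, also rose, and CCNG1, RBL2 and CCNG2 fell. These 6 kept their calls with the GC trend removed, at log2 fold changes of 0.46 for CCND3, 0.20 for CDK4 and 0.20 for CDKN2A, and -0.26, -0.31 and -0.19 for the genes that fell. CDKN2A, at 61.4% GC, was there close to the threshold (edgeR adjusted p = 0.047). It read 176, 146, 150 and 149 CPM in the WT libraries and 197, 208, 201 and 302 CPM in the edited ones, with replicate 4 far above the others. Of 15 E2F and DREAM regulators MYBL2 and E2F4 rose (13.3%) and TFDP2, E2F8 and LIN9 fell (20%), beside the same shares of all genes. TFDP2, a dimerization partner of E2F factors, read 21.2, 25.2, 22.05 and 22.8 CPM in the WT libraries and 12.8, 11.9, 12.1 and 12.6 CPM in the edited ones. Its groups were far apart, and its log2 fold change was -0.83 with the GC trend removed (edgeR adjusted p = 5.2e-07), while MYBL2 at -0.07 and E2F4 at -0.05 were no longer called. With the trend removed these lists counted 4 higher and 7 lower of 23, and none higher and 3 lower of 15. Of all genes 15.1% were then higher and 20.7% lower.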

How the data were processed

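RNA was measured in 4 WT and 4 MIEN1_KO libraries, grouped by their labels. The deposited values are raw counts of each gene, made by the authors from reads; the submitters' processing notes name TopHat2 2.0.9, HTSeq 0.6.1 and the build GRCh38. Not given in the sources used here were the annotation release, the counting mode and whether strand was used. Poly-A RNA was selected and primed with random hexamers, per the labels' protocols. Total counts of 21940903 to 25148790 per library limit the precision of low genes, and the reads carry no molecular identifiers, so they are not independent molecules.

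Symbols, positions and exon lengths came from GENCODE release 29, which held 45342 of the 48162 identifiers, and identifiers outside it took 1.09% of the counts. Genes were tested with edgeR 4.0.16 (filterByExpr, TMM factors 0.929 to 1.03, quasi-likelihood fit with group as the factor, robust, two-sided), which left 14228 genes, with a biological coefficient of variation of 8.78%. The p-values were adjusted over all of them with the Benjamini-Hochberg method and a gene was called below 0.05. The SE of a log2 fold change was taken from it and the F statistic of the test. Transcript GC content was available for 97.2% of the tested genes. To remove its trend, log2 deviations of genes from the mean over libraries were smoothed on GC with loess (span 0.5) in each library, and the curve was centred on its median and used as an offset in edgeR. The centring, the GC bins and the 5 Mb window were chosen after values were seen. Spearman's and Pearson's correlations across genes are descriptions, as genes are not independent replicates.

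The members and lists were chosen with earlier results of these data known, so no list was tested as a set. All 50 members and MIEN1 are named, and from each of the 4 other lists the 3 called genes with the smallest p in each direction, except a replication gene that is not reported here. In the other lists 51 of 52 replication entries, 78 of 81 mitotic entries, 24 of 24 G1 entries and 15 of 15 E2F entries matched, with older spellings listed beside newer ones. Alternatives were DESeq2 1.42.0 size factors and Wald test, factors from the upper quartile, all genes without a low-count filter, at least 50 counts in each of 4 libraries, limma-voom (limma 3.58.1), a replicate block, removal of the GC trend and leaving out each library. Tested on simulated counts of the 14228 genes, the edgeR fit recovered 32% of genes changed 1.25-fold, 80% at 1.5-fold, 92% at 2-fold and 100% at 4-fold. The analysis used Python 3.11.15 (numpy 2.4.6, pandas 2.3.3, matplotlib 3.10.9, scipy 1.17.1) and R 4.3.3.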

Additional observations from a re-analysis of the deposited data

Results flagged for a closer look

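In 6 of 100 groups of 4 values (50 genes in 2 groups) the highest or lowest library lay far from the other 3, where chance alone flags about 1 in 20. MIEN1_KO replicate 4 was that library in 4 of the 6. CDC20 was at 241 CPM in it against at most 198 CPM in the other edited libraries, and MCM7 at 718 CPM against at most 611. CENPE was at 41.2 CPM in it against at least 54.0 CPM in the others, and BUB1B at 61.4 CPM against at least 76.4. FOXM1 was lowest in MIEN1_KO replicate 2, at 109 CPM against at least 128 in the other edited libraries. BUB1 was lowest in WT replicate 1, at 85.5 CPM against at least 90.3 in the other WT libraries. In all 4 replicate 4 values the direction followed transcript GC, higher for CDC20 and MCM7 (57.9% and 57.6% GC) and lower for CENPE and BUB1B (35.3% and 43.2%), and its part in them was not tested.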

How the results depend on the processing

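DESeq2 size factors, the DESeq2 Wald test, limma-voom, no filter on low counts, the stricter filter and the replicate block turned no member's direction, and each changed the call of at most 1 member. Deviations of same-numbered libraries had correlations of -0.076, 0.20, 0.069 and 0.0092, within the -0.16 to 0.25 of differently numbered ones. Whether the numbers pair the samples is not given, and these correlations cannot settle it. The replicate block called 5984 genes against 5933. With upper-quartile factors the medians were -0.13 (replication) and -0.19 (mitotic), 39.7% of all calls were higher against 50.2% with TMM, and MCM7 (-0.011), RRM2 (-0.038) and KIF20A (-0.023) turned. With the GC trend removed 42.1% of calls were higher, replication calls were 5 with 0 higher, the mitotic median was -0.040, and 12 members turned: CDT1 (-0.11), MCM6 (0.025), MCM7 (-0.19), GINS1 (0.057), CCNE2 (0.011), E2F2 (-0.040), CCNA2 (0.0067), CCNB2 (0.062), CENPE (0.015), CENPF (0.0022), AURKB (-0.043) and TPX2 (0.0084).

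The other GC settings were added after seeing the data. A curve that was not centred shifted the median of all genes by 0.10, and 68.0% of calls were then higher and 1951 genes lower. On that shifted scale, replication calls were 7 higher and 2 lower, mitotic calls 9 higher and 1 lower, and the medians 0.084 and 0.070. It turned CDC6 (0.084), MCM4 (0.039), MCM6 (0.13), MCM7 (-0.079), GINS1 (0.17), PCNA (0.076), RRM1 (0.029), CCNE2 (0.12), CHEK1 (0.019), CCNA2 (0.12), CCNB2 (0.17), BUB1 (0.015), PTTG1 (0.062), CENPE (0.12), CENPF (0.11), TPX2 (0.12), KIF11 (0.070), TOP2A (0.013) and MKI67 (0.077). With the trend removed and MIEN1_KO replicate 4 left out, replication calls had 1 higher, mitotic calls 6 lower and the medians were 0.015 and 0.013. Then CDT1 (-0.086), MCM6 (0.045), MCM7 (-0.18), GINS1 (0.061), CCNE2 (0.085), CCNA2 (0.013), CCNB2 (0.054), CENPE (0.082), CENPF (0.12), AURKB (-0.042), TPX2 (0.031), KIF11 (0.019) and MKI67 (0.093) turned. The cause was not tested.

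Leaving out each library in turn gave 4666 to 6637 called genes, 7 to 12 replication calls (4 to 5 higher, 3 to 7 lower), 10 to 13 mitotic calls (3 higher in each fit, 7 to 10 lower), and medians of -0.090 to -0.035 and -0.13 to -0.076. The 3 lower replication calls came without WT replicate 3, and the mitotic median was -0.086 without WT replicate 2. CCNB2 (-0.070 to 0.0040), PTTG1 (-0.092 to 0.046), MCM7 (-0.0010 to 0.092) and MKI67 (-0.11 to 0.083) turned in some of these fits, and none of them was called in any. On simulated counts 32% of genes changed 1.25-fold were recovered. In that simulation 50 of the 14228 genes were changed at each fold, drawn at any count level, while 41.7% were called in the data. The share recovered there thus does not say how often changes in the members were missed.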
